A study of Mus musculus with 2 samples.

Results

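The genes described are 9 listed for retinoid synthesis, uptake and binding: Aldh1a1, Aldh1a2, Aldh1a3, Aldh1a7, Crabp1, Crabp2, Rdh10, Dhrs3 and Stra6. They were found by their symbols, 9 of 55536 annotated mouse genes in the tables. The set was chosen by its function and by 1 measured value, the lower level of Aldh1a1 in replicate 2, so that difference is given as a description and was not tested. Total RNA was sequenced from the adrenal gland of 4-day-old male mice of the hybrid strain B6CASTF1/J, with no treatment and no second condition named in the labels. The samples formed 1 group of 2 biological replicates, each a library from 300 ng of RNA with ERCC spike-in transcripts. The sample characteristics number the males differently, while both samples carry 1 donor label and a shared description. If they are not separate animals, the spread between them is technical. Both libraries come from whole tissue, in which fewer cells of a type and less RNA per cell cannot be told apart.

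Retinol, or vitamin A, circulates bound to a carrier protein and can enter cells through the receptor STRA6. Inside the cell it is oxidised first to retinal, by RDH10 among others, and then to retinoic acid by ALDH1A1, ALDH1A2 and ALDH1A3. DHRS3 turns retinal back into retinol. Whether the product of Aldh1a7 acts on retinal was not examined here. Retinoic acid is bound by CRABP1 and CRABP2 in the cytoplasm, acts on gene expression through the RAR and RXR nuclear receptors, and is broken down by CYP26 enzymes. Aldh1a1 is known to be expressed in the mouse adrenal gland.

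Aldh1a1 and Aldh1a7 are neighbours with similar coding sequences, which are shown because reads of one could be counted for the other. In mm10, Aldh1a1 (ENSMUSG00000053279.8) lies on chromosome 19 from 20492715 to 20643465 on the plus strand, and Aldh1a7 (ENSMUSG00000024747.3) on chromosome 19 from 20692953 to 20727562 on the minus strand, with 49487 bases between them. The coding sequences of their main transcripts, read from the GENCODE M21 transcripts, are each 1503 bases long and identical at 91.6% of positions (126 mismatches, no gaps). The first 120 coding bases of each are given 5′ to 3′, with the 10 bases that differ in capitals.
Aldh1a1: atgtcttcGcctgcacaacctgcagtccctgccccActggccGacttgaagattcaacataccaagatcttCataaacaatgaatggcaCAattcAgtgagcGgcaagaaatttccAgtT
Aldh1a7: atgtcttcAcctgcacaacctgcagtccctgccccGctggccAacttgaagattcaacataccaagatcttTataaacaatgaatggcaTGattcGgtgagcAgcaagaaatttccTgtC

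Few long stretches were shared by both genes. Of the 1967 windows of 100 bases in the main Aldh1a7 transcript, 1 was also in that of Aldh1a1. Of its 2036 windows of 31 bases, 281 (13.8%) were shared. The coding sequences of Aldh1a1 and Aldh1a2 were identical at 68.8% of 1502 aligned positions, those of Aldh1a1 and Aldh1a3 at 67.4% of 1503, and those of Crabp1 and Crabp2 at 70.8% of 411. None of these 3 pairs shared a window of 31 bases.

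The sequences just before the start sites of Aldh1a1 and Aldh1a7 were alike as well, and are shown because the genes' levels were far apart. The 110 bases before each RefSeq start (GRCm38.p6, the build of mm10) differed at 6 positions, in capitals. The Aldh1a1 stretch is chr19:20601858-20601967 on the plus strand and the Aldh1a7 stretch chr19:20727557-20727666 on the minus strand, each printed 5′ to 3′ towards its gene.
Aldh1a1: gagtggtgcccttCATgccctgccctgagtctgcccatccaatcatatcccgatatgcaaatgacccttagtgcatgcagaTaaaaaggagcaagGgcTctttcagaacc
Aldh1a7: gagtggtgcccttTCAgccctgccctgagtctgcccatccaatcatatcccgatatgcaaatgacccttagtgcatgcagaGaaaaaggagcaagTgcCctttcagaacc

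Genes received 32231301 expected counts in replicate 1, and 30292851 in the second library. Levels are given as gene TPM, a per-length measure that sums to a fixed total within a library, and differences between the libraries as log2 ratios of counts scaled with TMM in edgeR. The marker lists were chosen with earlier results of these data known. Of the markers of the adrenal cortex, 9 of 9 had a mean of 1 TPM or more, as the tissue label implies. So had 8 of 8 of chromaffin cells, the catecholamine cells of the medulla. Of all protein-coding genes, 60.4% reached that level. Replicate 2 also held far more RNA of liver genes, with 12 of 12 liver markers past 2-fold higher there (median log2 ratio 4.87) and a sum of 234 TPM against 6121 TPM. Replicate ratios of genes that liver also expresses stand beside that difference.

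Of the set, 5 genes reached the limit of 1 TPM and the other 4 had means of 0.355 to 0.915 TPM, as the plot of levels by gene shows. Dhrs3, Aldh1a1, Aldh1a2, Aldh1a3 and Rdh10 had a mean of 1 TPM or more, so 5 of 9 passed. Of all protein-coding genes 60.4% did, a similar share. In descending order of mean TPM the set ran Dhrs3, Aldh1a1, Aldh1a2, Aldh1a3, Rdh10, Aldh1a7, Crabp1, Crabp2 and Stra6. The values of neighbours in this order overlapped for Dhrs3 and Aldh1a1, Aldh1a1 and Aldh1a2, Aldh1a7 and Crabp1, and Crabp2 and Stra6. They did not overlap at the steps from Aldh1a2 to Aldh1a3, from Aldh1a3 to Rdh10, from Rdh10 to Aldh1a7 and from Crabp1 to Crabp2.

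**Figure D1:**
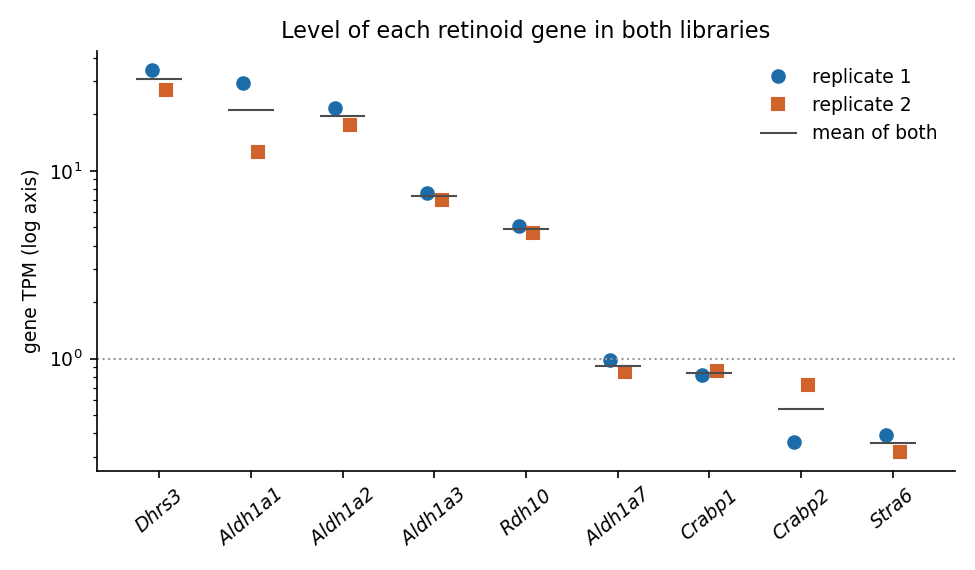
Gene TPM (log axis) of the 9 retinoid genes in replicate 1 (circles) and replicate 2 (squares), with the mean of both as a bar and 1 TPM as a dotted line. Aldh1a1 lies at 29.5 TPM in replicate 1 and 12.6 TPM in replicate 2. The values of Rdh10 (5.10 and 4.69 TPM) and Aldh1a3 (7.65 and 6.99 TPM) lie closer together on this scale.

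Of the pair in the set that exchange retinol and retinal, Dhrs3 had the higher level and Rdh10 the lower. Dhrs3 (ENSMUSG00000066026.14, chromosome 4, 144892827 to 144928209) had 34.5 and 26.9 TPM in replicates 1 and 2, a mean of 30.7 ± 5.39 TPM (SD, n = 2), from 1797 and 1329 counts. Rdh10 (ENSMUSG00000025921.7, chromosome 1, 16105774 to 16133734), whose product oxidises retinol, had 5.10 and 4.69 TPM, a mean of 4.90 ± 0.290 TPM, from 580 and 470 counts. Both Dhrs3 values lay above both Rdh10 values. The log2 ratio of Rdh10 to Dhrs3 within a library was -2.76 and -2.52, with a mean of -2.64 ± 0.17 on the TPM scale. Counts without length scaling gave -1.57, where each annotated Dhrs3 transcript (at most 2337 bases) is shorter than Rdh10-201 (3587 bases).

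The genes of the retinoic acid-forming enzymes were led by Aldh1a1 in replicate 1 and by Aldh1a2 in replicate 2. Aldh1a2 (ENSMUSG00000013584.5, chromosome 9, 71215789 to 71296243), the main retinoic acid-forming enzyme of the embryo, had 21.6 and 17.6 TPM in replicates 1 and 2, a mean of 19.6 ± 2.77 TPM, from 1545 and 1140 counts. Aldh1a3 (ENSMUSG00000015134.15, chromosome 7, 66390890 to 66427517), the third enzyme of this kind, had 7.65 and 6.99 TPM, a mean of 7.32 ± 0.467 TPM, from 772 and 598 counts. Both of its values were below both of those of Aldh1a2. Aldh1a1 had 29.5 and 12.6 TPM in the same order, a mean of 21.1 ± 11.9 TPM, from 1891 and 732 counts, and its values lay on either side of those of Aldh1a2.

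Aldh1a7, the close copy, was far lower, with 0.980 and 0.850 TPM from 64 and 50 counts. Aldh1a1 exceeded it 30.1-fold in replicate 1 and 14.8-fold in replicate 2, with a mean log2 ratio of 4.40 ± 0.72 (SD, n = 2). The sum of the 4 Aldh1a genes came to 59.7 and 38.1 TPM. Aldh1a1 held 49.4% of that sum in replicate 1 and 33.1% in replicate 2, and Aldh1a2 held 36.1% and 46.3%. Without Aldh1a1 the sums were 30.2 and 25.5 TPM. The log2 ratio of Aldh1a2 to Aldh1a1 was -0.45 in replicate 1 and 0.48 in replicate 2, so these genes have no settled order in the gland from 2 libraries.

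The binding proteins and the receptor were scarce. Crabp1 (ENSMUSG00000032291.8, chromosome 9, 54764748 to 54773110) had 0.820 and 0.860 TPM in replicates 1 and 2, from 19 and 18 counts. Crabp2 (ENSMUSG00000004885.5, chromosome 3, 87948666 to 87953376), whose product hands retinoic acid to its receptors, had 0.360 and 0.720 TPM from 10 and 18 counts. Both Crabp2 values were below both Crabp1 values, by a mean log2 ratio of -0.72 ± 0.66, but with counts this low the order is not firm. Stra6 (ENSMUSG00000032327.14, chromosome 9, 58063788 to 58153996), the receptor that takes up retinol from its carrier, had 0.390 and 0.320 TPM from 37 and 25 counts. All 3 genes stood above the 3 counts that a count of 0 would allow, which make 0.0931 and 0.0990 CPM of the counts on genes in replicates 1 and 2; such limits and the intervals below cover counting error only.

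Aldh1a1 was the gene of the set that differed most between the libraries. Its log2 ratio of replicate 2 over replicate 1 was -1.31, or 2.48-fold lower in replicate 2, with a 95% counting interval of -1.44 to -1.19 (exact Clopper-Pearson). Of the 8 set genes that passed the filter on low counts, 1 was past 2-fold lower in replicate 2, where 0.710% of the 18160 genes tested were, and 0 were past 2-fold higher, where 3.60% were (4.31% in either direction). Of genes at 1 TPM or more, 0.385% were past 2-fold lower. At 1.5-fold the set's counts were again 1 lower and 0 higher, where 2.93% and 8.69% of genes tested were. Of all genes tested, 0.264% had a ratio as low as that of Aldh1a1 or lower. That ratio chose Aldh1a1, so nothing is read from this share or from the set's counts. Crabp2 did not pass the filter, and its 10 and 18 counts gave a log2 ratio of 0.87 with an interval of -0.29 to 2.18 that includes 0.

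The other 7 genes that passed the filter were all within 2-fold, and each was lower in replicate 2. Their log2 ratios ran from -0.50 for Stra6 to -0.02 for Crabp1, with a median of -0.31, where the median over all genes tested was 0.00018 and 9071 of them (49.95%) were below 0. Aldh1a2 and Dhrs3 were each at -0.38 (intervals -0.49 to -0.27 and -0.48 to -0.27), Aldh1a3 at -0.31 (-0.47 to -0.15) and Rdh10 at -0.24 (-0.42 to -0.07), so these 4 intervals lie below 0. Those of Stra6 (-1.30 to 0.26), Aldh1a7 (-0.86 to 0.26) and Crabp1 (-1.03 to 0.99) include 0. Crabp1 was above 0 when counts were scaled to total gene counts or to spike-ins and on the TPM scale, and the other 6 stayed below 0 under each of those scalings.

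**Figure D2:**
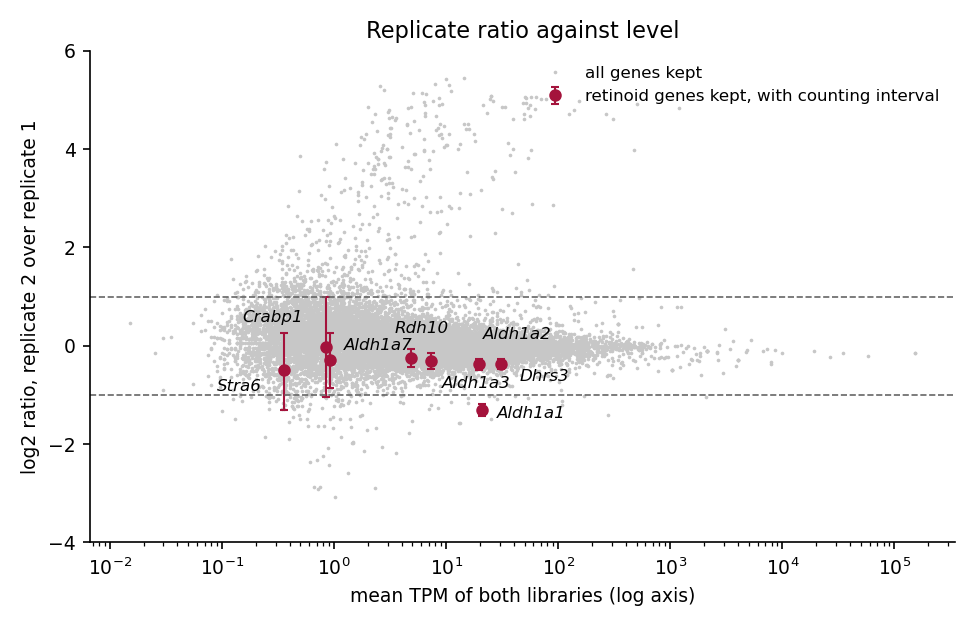
Log2 ratio of replicate 2 over replicate 1 (TMM-scaled counts) against mean TPM (log axis) for all genes tested (grey) and for the 8 retinoid genes that passed the filter (red, bars are 95% counting intervals); dashed lines mark 2-fold. Aldh1a1 lies at -1.31, below the lower line, and the other 7 lie between the lines.

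Marker genes of several cell types also differed between the libraries. All 9 cortex markers (median log2 ratio -0.25, summed level 8892 and 6895 TPM in replicates 1 and 2) and all 8 chromaffin markers (median -0.24, 2174 and 1968 TPM) were lower in replicate 2 in TMM-scaled counts and within 2-fold. On the TPM scale Scarb1 (225 and 232 TPM) and Ddc (39.4 and 39.7 TPM) were higher there. Of the 4 X-zone markers, the genes of a passing cell layer next to the medulla, all had ratios below 0 in TMM-scaled counts and Akr1c18 was past 2-fold at -1.40. That of Pik3c2g had an interval of -0.77 to 0.31, and its TPM was higher in replicate 2 (0.67 and 0.89). The X-zone list summed to 486 and 227 TPM, of which Akr1c18 held 393 and 158 TPM. Of 8 kidney markers, 6 passed the filter, and 5 of these were past 2-fold lower in replicate 2, where 0.710% of all genes tested were, with a median of -1.45 over the 6.

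The kidney markers past 2-fold were Slc34a1, a phosphate transporter of the proximal tubule, at -1.68, Aqp2 at -1.64, Lrp2 at -1.50, Slc12a1 at -1.41 and Slc12a3 at -1.23. Slc12a3 had 57 and 23 counts in the gene tables but 88.3 and 70.0 in the alignment-free ones, where it was within 2-fold. The whole list summed to 8.30 TPM in replicate 1 and 3.39 TPM in replicate 2, and none of its 8 genes was at 0 counts in both libraries. Several other lists were mostly higher in replicate 2. Skeletal muscle was higher in 6 of 6 genes (median 0.79) and erythroid cells in 6 of 6 (0.79). Schwann and sustentacular cells were higher in 7 of 7 (0.42), and capsule and stroma in 9 of 10 (0.35). Endothelium and macrophages were higher in 5 of 7 genes each (0.06 and 0.05), adipocytes in 5 of 6 (0.20) and gonad in 2 of 4 (0.006). The part of these cell types in the ratio of Aldh1a1 or of the other retinoid genes was not tested.

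The 5 genes listed next were nearest to Aldh1a1 in their pair of levels, by Euclidean distance of log2(TPM + 1) over the 2 libraries among 22027 protein-coding genes. They were Apba3 at 25.2 and 16.9 TPM, Jun at 24.2 and 16.5 TPM, Rab33a at 22.0 and 15.1 TPM, Ly6c1 at 21.4 and 14.0 TPM, and Plac9b at 25.03 and 17.41 TPM. Their distances ran from 0.453 to 0.491. Their log2 ratios lay between -0.67 and -0.50. The search used the same pair of levels whose difference chose Aldh1a1, so nothing is read from their smaller differences.

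Transcript shares inside the genes, which the choice of the set did not use, were clear for some genes and not for others. Aldh1a2, Aldh1a7 and Crabp1 have 1 annotated transcript each. Of the 6 with more, Aldh1a1, Aldh1a3, Crabp2, Rdh10 and Stra6 had the same main transcript in both libraries and both kinds of table, alignment-based and alignment-free. Rdh10-201 held 96.7% and 92.1% of the gene's TPM in the alignment-based tables and 93.1% and 93.9% in the alignment-free ones. Aldh1a3-201 held 87.3% and 80.5%, and 85.6% and 69.5%.

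The tables disagreed on where Aldh1a1 transcripts start. Aldh1a1-201, with 13 exons, begins at 20601961, within the last bases of the stretch printed above, which ends before the RefSeq start. Aldh1a1-206, with 16 exons, begins 109246 bases further upstream, has 3 exons before the one where coding begins and carries the same 1503 coding bases. Aldh1a1-201 held 98.5% and 95.1% of the gene's TPM in the alignment-based tables of replicates 1 and 2, but 50.8% and 60.1% in the alignment-free ones. Aldh1a1-206 was listed at 0 and 0.380 TPM in the former and at 24.2 and 7.65 TPM in the latter. Of the 100-base windows of Aldh1a1-201, 98.2% are also in Aldh1a1-206, which is the longer at 2358 against 2053 bases. The split between these start sites is uncertain, and the cause of the disagreement was not tested. Taken by itself, Aldh1a1-201 was lower in replicate 2 in both kinds of table. It had 29.1 and 12 TPM in the alignment-based and 25.7 and 13.1 TPM in the alignment-free ones. Aldh1a1-206 was lower in replicate 2 in the alignment-free tables only. Both kinds of table rest on the same libraries. The lower level of the whole gene chose Aldh1a1, so nothing is read from the lower levels of its transcripts.

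Dhrs3 was divided among several transcripts. Dhrs3-207, a coding transcript, held 44.7% and 38.0% of its TPM in the alignment-based tables, and Dhrs3-206, also coding and longer, 33.6% and 38.2%, so their order changed between the libraries. In the alignment-free tables Dhrs3-207 led with 37.9% and 32.2%, followed by Dhrs3-205 at 28.3% and 28.5%, a coding transcript of 686 bases that held 5.45% and 0% in the alignment-based tables. Dhrs3-201, annotated for nonsense-mediated decay, held between 11.8% and 23.1% in the 4 tables. Stra6 has 14 annotated transcripts, and its 37 and 25 counts are too few to rank them. Stra6-214 led in all 4 tables, but in the alignment-based table of replicate 2 only at 0.15 TPM against 0.13 TPM for Stra6-202.

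**Figure D3:**
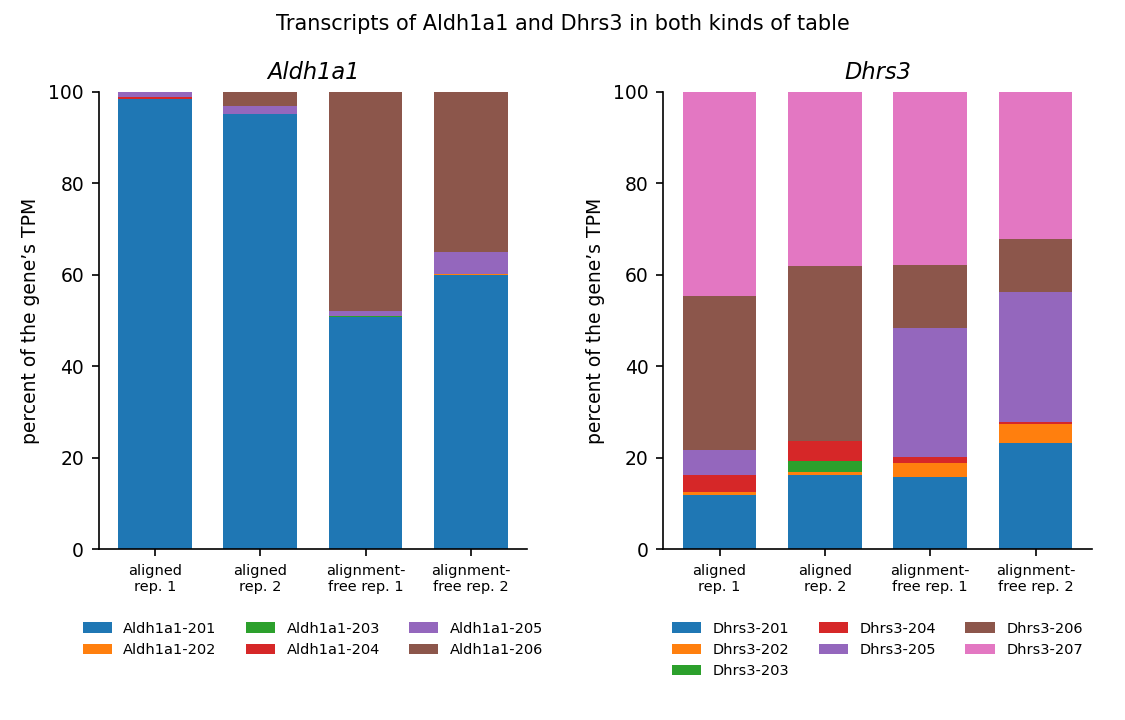
Percent of the gene's TPM held by each annotated transcript of Aldh1a1 (left) and Dhrs3 (right), in the alignment-based and the alignment-free tables of both libraries. Aldh1a1-206 takes 47.9% and 35.1% in the alignment-free tables and 0% and 3.01% in the alignment-based ones.

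Genes that overlap the set in the annotation had few or no counts. C730002L08Rik, a non-coding gene on the strand opposite to the far upstream part of Aldh1a1, had 2 counts in each library. Ccdc33, opposite to Stra6, had 6 and 2 counts, and Gm16131, Gm48124 and Gm6684, the other genes that overlap Stra6, Aldh1a2 or Aldh1a1, had 0. The sources used here do not say whether reads were counted by strand.

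No direct repeat of a retinoic acid response motif was found in the promoter windows at hand. RefSeq promoters (GRCm38.p6, 250 bases before to 50 after a start) matched 6 of the 9 genes in 12 windows, and Aldh1a3, Crabp2 and Rdh10 had none. The 6-base motifs bound by these receptors, AGGTCA or its variants AGTTCA or else GGGTCA or else GGTTCA, were searched as pairs in the same direction with 5, 2 or 1 bases between, on both strands. Pairs with 5 bases between were in 0.0975% of 32817 promoter windows of this length and in 0 of the 12, those with 2 in 0.268% and 0, and those with 1 in 0.222% and 0. A single motif of these 4 kinds, which the pairs contain, was in 43.7% of all windows and in 3 of the 12, those of Aldh1a1, Aldh1a7 and Stra6. In Aldh1a1 and Aldh1a7 it lies on the opposite strand, 49 bases before the start and so within the stretches printed above. The result for pairs says only that these letters are not in these windows.

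Retinol carriers and storage genes were mostly higher in replicate 2, as liver genes were. Of 8 such genes 4 had 1 TPM or more, where 60.4% of protein-coding genes did. Of the 5 that passed the filter, 4 were past 2-fold higher in replicate 2 and 0 lower, beside 3.60% and 0.710% of all genes tested. Ttr and Rbp4, which carry retinol in blood plasma and are made in quantity by liver, had 8.69 and 243 TPM, and 4.00 and 109 TPM, with log2 ratios of 4.71 and 4.67. These are close to the median of 4.87 of the liver markers. Rbp7, a cellular retinol-binding protein of fat and vessels, had 3.02 and 7.02 TPM, and Lrat, which esterifies retinol for storage, 0.0900 and 0.330 TPM from 15 and 52 counts. Stra6l, a receptor related to STRA6, did not pass the filter with 7 and 185 counts. The part of liver RNA in these ratios was not tested.

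Other enzymes that can act on retinol or carotenoids included 1 of very high level. Of 20 such genes 12 had 1 TPM or more, where 60.4% of protein-coding genes did. Of the 17 that passed the filter, 3 were past 2-fold higher in replicate 2 and 0 lower, beside 3.60% and 0.710% of all genes tested. Adh1, an alcohol dehydrogenase that also oxidises retinol, had 1926 and 1774 TPM, a mean of 1850 ± 107 TPM (SD, n = 2), above every gene of the 9-gene set. Adh5 followed at 104 ± 5.42 TPM, Retsat, a retinol saturase, at 57.9 ± 1.5 TPM and Dhrs7 at 32.6 ± 3.38 TPM. Those past 2-fold were Rdh7, a retinol dehydrogenase, at 0.520 and 16.6 TPM (log2 ratio 4.89), Rdh9 at 0.330 and 1.52 TPM (2.13) and Bco1, which cleaves carotene, at 0.30 and 0.720 TPM (1.17). The median log2 ratio of the 17 was -0.07. Rdh7, Rdh9 and their neighbours in the family are similar in sequence, and their counts were not whole numbers, so their split among copies is uncertain.

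For breakdown of retinoic acid, Cyp26b1 was the expressed gene. It had 4.2 and 7.44 TPM in replicates 1 and 2, a log2 ratio of 0.73 (interval 0.58 to 0.88), within 2-fold and higher in replicate 2. Cyp26a1 had 5 and 2 counts, and Cyp26c1 0 counts in both gene tables, although the alignment-free tables gave it 1 and 2.

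All 14 receptor and cofactor genes had 1 TPM or more, where 60.4% of protein-coding genes did. The receptors for retinoic acid Rara, Rarb and Rarg had 17.3 ± 0.940, 7.32 ± 1.17 and 9.28 ± 0.686 TPM, and their partners Rxra, Rxrb and Rxrg 19.0 ± 2.86, 25.1 ± 1.84 and 2.53 ± 1.03 TPM (SD, n = 2). The corepressor gene Ncor1 had 70.3 ± 1.06 TPM, and Nrip1, a cofactor of nuclear receptors, 31.6 ± 0.0636 TPM. Fabp5, a fatty acid-binding protein that also binds retinoic acid, was the 1 gene of the list past 2-fold, with 28.1 and 77.5 TPM (log2 ratio 1.33), and 0 were past 2-fold lower, where 3.60% of all genes tested were higher and 0.710% lower. The median log2 ratio of the 14 was 0.07.

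Genes known to be induced by retinoic acid were near equal between the libraries. Of 12 such genes 7 had 1 TPM or more, where 60.4% of protein-coding genes did. The filter kept 9, with a median log2 ratio of 0.04. Of these 9, 1 was past 2-fold higher in replicate 2, Lrat, which is also on the carrier list, and 0 were past 2-fold lower, beside the same 3.60% and 0.710%. The highest were Nrip1 and Tgm2 (22.6 ± 0.806 TPM), then Rarb. Hoxb1 had 0 counts in both gene tables but 8 and 14 counts in the alignment-free ones. Over all 51 other genes of the pathway lists, 8 of the 41 that passed the filter were past 2-fold higher in replicate 2 and 0 lower, where 3.60% and 0.710% of all genes tested were.

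**Figure D4:**
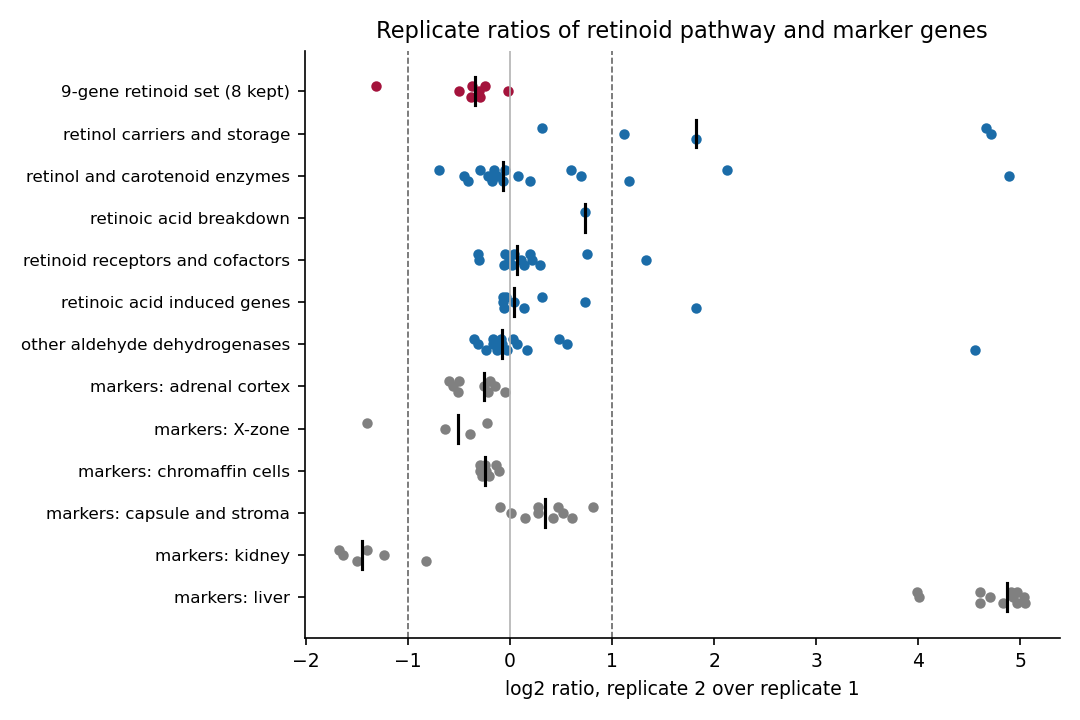
Log2 ratio of replicate 2 over replicate 1 for each gene that passed the filter, by list: the 9-gene retinoid set (red), other pathway lists (blue) and cell type markers (grey); black bars are medians and dashed lines mark 2-fold. The retinoid set lies below 0, Ttr, Rbp4 and Rdh7 lie within the range of the liver markers (3.99 to 5.05), and kidney markers lie around their median of -1.45.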

How the data were processed

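The members and all lists were chosen with earlier results of these data known. The authors made the tables against mm10 and GENCODE M21, according to text notes deposited beside them; the sources used here name no program. The expected counts and TPM values were deposited by the authors per gene and per transcript, from an alignment to the transcriptome, and estimated counts and TPM also per transcript without alignment, which were summed per gene here. Gene coordinates count from 1. Spike-ins (1.06% of counts in each library) and 26249 rows without a gene identifier (3 counts in each) were left out.

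Counts were rounded, filtered with filterByExpr (18160 genes kept) and scaled with TMM in edgeR 4.0.16 (R 4.3.3). With 1 group, a gene had to reach the filter's limit in both libraries. Genes low in only 1 library, such as Stra6l with 7 and 185 counts, are therefore missing from the shares past 2-fold. Log2 ratios use a prior count of 0.5, and 2-fold counts as past. With 1 library on each side no p-value was computed. Counting intervals (95%, scipy 1.17.1) follow the binomial distribution of the counts of a gene in the libraries. On simulated counts of 18587 genes for this comparison, medians of 200 changed genes came within 0.013 of the true log2 ratio, and 92.5% of intervals held it. The simulation held counting error only, and no gene of low counts was changed in it. It therefore cannot speak for the spread between animals, or for counts as low as those of Crabp1, Crabp2 and Stra6. DESeq2 1.42.0 size factors were an alternative. Biopython 1.88 aligned coding sequences.

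Named genes were the 9 members, the 4 highest of each other pathway list, those past 2-fold, those named by a count of 5 or fewer and the 5 nearest to Aldh1a1. RAR and RXR genes, Stra6l, Hoxb1, Akr1c18 and the kidney markers past 2-fold were added after their values were seen. A few genes that the rule names are not reported here.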

Additional observations from a re-analysis of the deposited data

How the results depend on the processing

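The log2 ratio of Aldh1a1 between the libraries stayed between -1.31 and -1.22 under 6 alternatives (DESeq2 size factors, total gene counts, spike-ins, a prior count of 5, alignment-free counts and gene TPM), each within its counting interval. The number of genes past 2-fold, 1 lower and 0 higher, was the same with DESeq2 size factors, total gene counts and spike-ins, without the filter, with alignment-free counts, with a prior count of 5 and at 1.5-fold. With alignment-free counts Crabp2 was at 1.02, past 2-fold higher, and was not counted because it did not pass the filter. For the other 8 genes, 47 of 48 alternative ratios lay within the counting interval; the exception was Aldh1a3 at -0.13 on the TPM scale, where the median of all genes tested lay 0.10 higher. The number of genes at 1 TPM or more was 5, and 8 with a limit of 0.5 TPM or with alignment-free TPM, the cause of the latter not being tested. Alignment-free TPM was 1.63 to 2.41 times the gene-table TPM, and TPM over protein-coding genes alone 2.61 to 2.68 times. The log2 ratio of Rdh10 to Dhrs3 was -3.09 in alignment-free TPM and -1.57 in unscaled counts, against -2.64. Leaving out 1 library gave 5 genes at 1 TPM or more either way, and log2 ratios of 3.89 to 4.91 for Aldh1a1 to Aldh1a7, -1.19 to -0.26 for Crabp2 to Crabp1, -2.76 to -2.52 for Rdh10 to Dhrs3 and -0.45 to 0.48 for Aldh1a2 to Aldh1a1. No paired analysis was possible because the series has 1 group. Crabp1, Crabp2, Stra6 and Aldh1a7 rest on 10 to 64 counts, which limits their ratios.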

Other observations

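Aldehyde dehydrogenases outside the Aldh1a genes of the set were also expressed in the gland. Of 16 such genes 14 had a mean of 1 TPM or more, where 60.4% of protein-coding genes did. Aldh2, the mitochondrial enzyme that clears acetaldehyde, led at 399 and 334 TPM in replicates 1 and 2, a mean of 366 ± 45.8 TPM (SD, n = 2), so it stood above the summed Aldh1a genes in each library. Aldh3b1, Aldh7a1 and Aldh6a1 followed at 44.7 ± 4.58, 38.3 ± 2.25 and 37.3 ± 1.28 TPM. Of the 15 that passed the filter, 1 was past 2-fold higher in replicate 2 and 0 lower, where 3.60% and 0.710% of all genes tested were, and their median log2 ratio was -0.08. The gene past 2-fold was Aldh8a1, an enzyme of tryptophan breakdown that was first described as acting on retinal, at 0.190 and 4.17 TPM (log2 ratio 4.55), beside a median of 4.87 for the 12 liver markers. The part of liver RNA in that ratio was not tested.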
